A study of Saccharomyces cerevisiae with 7 samples.

Results

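The 53 genes described here code for enzymes of amino acid biosynthesis in budding yeast, Saccharomyces cerevisiae. They were taken by symbol from the 6341 features of each count file, and all 53 were found. They cover the routes to arginine, proline, glutamate and glutamine, histidine, the branched-chain amino acids, lysine, threonine, aspartate and asparagine, the aromatic amino acids, and serine. Enzymes of sulfur amino acid synthesis and the deleted markers of the strain were left out. Sequencing counted the RNA held by ribosomes in 7 libraries. Minus_Rps26 (3 libraries) is RNA from ribosomes described as lacking Rps26, a small-subunit protein, which carried a TAP tag on Rps3 and were eluted from IgG beads. Plus_Rps26 (3 libraries) is RNA from the untagged ribosomes that the beads did not bind, collected from a sucrose gradient. Both classes came from the same strain of BY4741 (S288C), which bears HisMX6::pGAL1-Rps3 and NatMX6::pGAL1-Rps26A, the deletion Rps26B::KanMX6, and the plasmid pCM189 with Rps3-TAP. In that strain glucose turns off the GAL1 promoter before RPS3 and RPS26A, RPS26B is replaced by a marker, and doxycycline keeps the plasmid copy off. Its cells grew to mid-log phase in YPGal (galactose) medium with 0.2 µg/ml doxycycline and then spent 4 h in YPD (glucose) medium without it. Rps3_TAP is 1 library of bead-eluted ribosomes from another strain, BY4741 with Rps3-TAP::HisMX6, grown to mid-log phase in YPD. All cells were given 100 µg/ml cycloheximide, which holds ribosomes on their mRNA.

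Yeast without deletions in these routes can make every amino acid, and most routes have an early step that the end product inhibits. The BY4741 background of both strains lacks LEU2 and MET17, and part of HIS3. When amino acids run short, the kinase Gcn2 is activated, translation of the activator Gcn4 goes up, and Gcn4 turns on genes in nearly all of these routes. Leu3, Lys14, Bas1 and other activators add control of single routes. YPD and YPGal are rich media that supply amino acids. The series asks whether ribosomes with and without Rps26 hold different mRNAs, and its title ties Rps26 to the bases before the start codon.

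Counts over all features came to 9605899 to 21405499 per library. A member had 66 to 41825 counts in a library, so counting error was small beside the spread between replicates. Minus_Rps26 and Plus_Rps26 were purified in different ways, so the class of ribosome and the method cannot be told apart. Without libraries of total RNA here, more mRNA and more ribosomes per mRNA cannot be told apart either. Ribosomal protein genes took 17.6% to 23.5% of nuclear protein-coding counts in Minus_Rps26, 30.6% to 42.0% in Plus_Rps26 and 35.7% in Rps3_TAP. In 5 libraries the line for reads without a unique place held 11530659 to 18980582, but it held 0 for replicate 3 of each class. By the purification protocol, same-numbered libraries are the bound and unbound ribosomes of 1 lysate. The description of Plus_Rps26 replicate 2 carries another flowthrough number, so its pairing rests on its title. Of the markers deleted in BY4741, MET17 had no count in any library, LEU2 had 7 counts in Plus_Rps26 replicate 3 and none elsewhere, and HIS3, deleted in part, had 91.9 to 315 CPM. URA3, which the pCM189 plasmid carries, stood at 25.3 to 104 CPM across the depletion strain, against 1 count in Rps3_TAP.

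Of nuclear protein-coding counts, the 53 genes together took 2.06%, 2.30% and 1.99% in Minus_Rps26 (values of a group are in the order of replicates 1, 2 and 3 throughout), 1.87%, 1.75% and 1.92% in Plus_Rps26, and 1.73% in Rps3_TAP. The groups did not overlap, with a mean of 2.11% ± 0.161 in Minus_Rps26 and 1.85% ± 0.0838 in Plus_Rps26 (SD, n = 3 each). With the ribosomal protein genes out of the total, the direction turned: the shares were 2.69%, 2.93% and 2.41% in Minus_Rps26, 2.69%, 3.03% and 3.18% in Plus_Rps26 and 2.69% in Rps3_TAP. Levels are given as CPM, a library's counts over its size, scaled with trimmed-mean factors over the 7 libraries, and per kilobase of coding length where genes are compared with each other. Glutamine synthetase, GLN1, had the highest mean level, 2028 CPM per kb over the 7 libraries. ILV5, of the branched-chain route, followed at 1495, HOM6 of the threonine route at 667, ARO4 of the aromatic route at 616 and HIS1 of the histidine route at 497 CPM per kb. GLN1 and ILV5 overlapped over libraries: GLN1 stood at 1219 ± 697 and ILV5 at 1030.5 ± 272 CPM per kb in Minus_Rps26 (SD, n = 3). HOM6 and ARO4 lay close to each other, and their spreads overlapped in Plus_Rps26: HOM6 stood at 383 ± 15.1 and ARO4 at 469 ± 65.0 CPM per kb in Minus_Rps26, while HOM6 stood at 926 ± 321 and ARO4 at 835 ± 52.0 CPM per kb in Plus_Rps26 (SD, n = 3). At the low end, the homocitrate synthase LYS20 had 44.8, argininosuccinate synthetase ARG1 16.1 and ornithine carbamoyltransferase ARG3 8.63 CPM per kb.

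**Figure D1:**
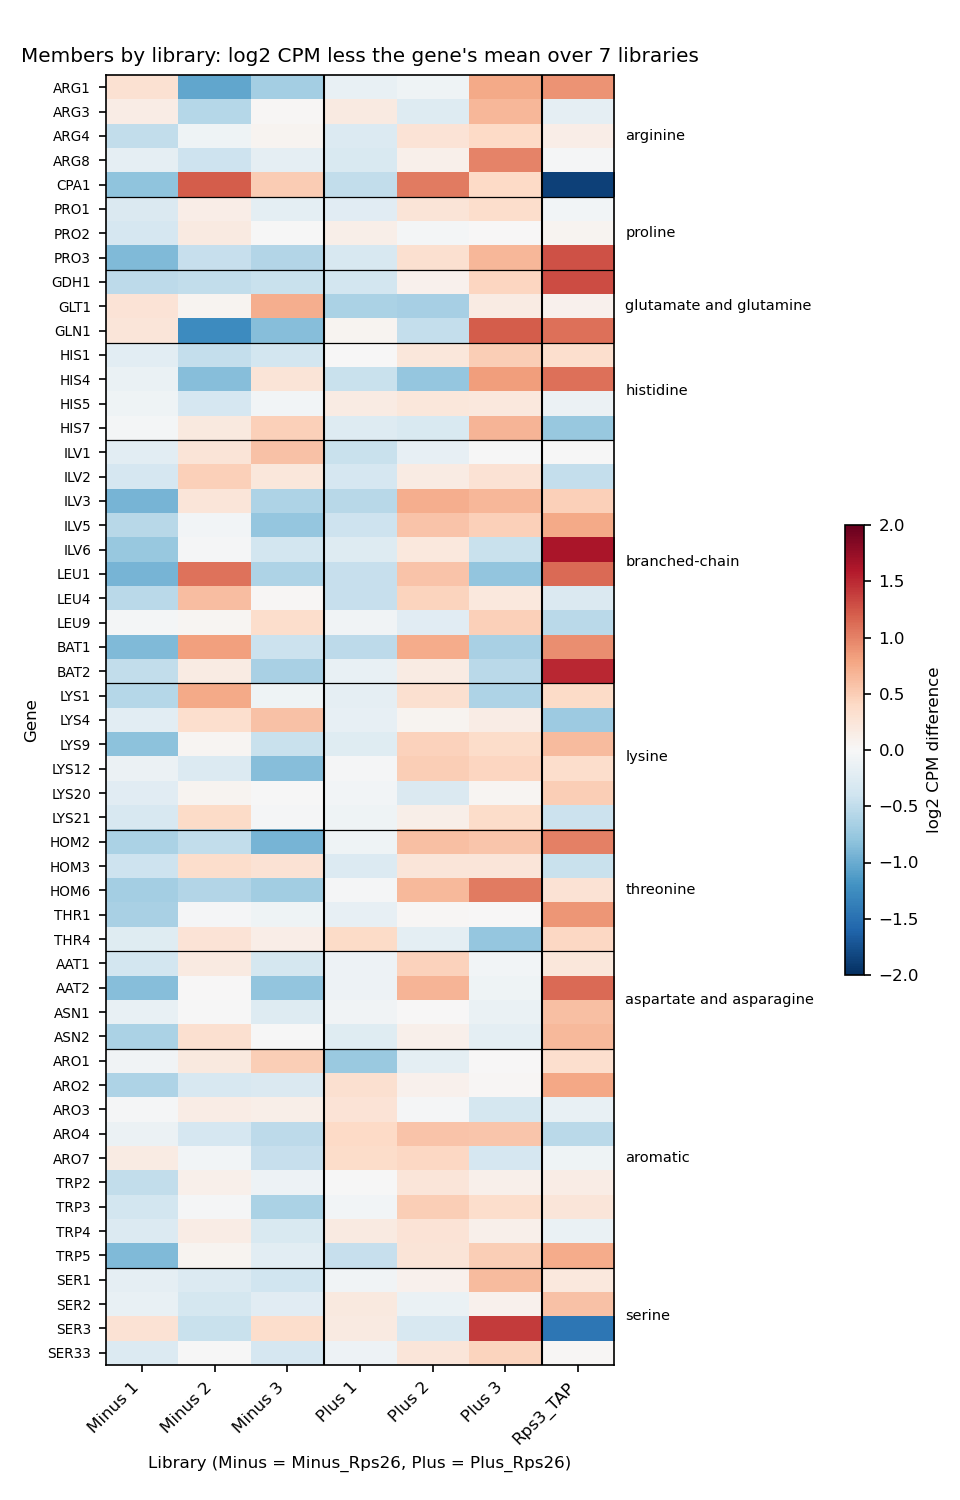
Level of each of the 53 genes (rows, by route) in each of the 7 libraries (columns), as log2 CPM less the gene's mean over the 7 libraries. CPA1 and SER3 are low in Rps3_TAP, and LEU1 and BAT1 are high in replicate 2 of both classes.

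Between the classes, few of these genes passed the test, and those that did were lower in Minus_Rps26. Of 53 genes, 0 rose and 2 fell, HOM2 and HOM6 (edgeR quasi-likelihood test on 6 libraries, Benjamini-Hochberg adjusted p under 0.05). Among all 5668 features tested, 8.1% rose and 7.9% fell. The median log2 fold change of the 53 was -0.29 and that of all features 0.03, with 37 of the 53 below 0 and 16 above. The median log2 ratio of Minus_Rps26 to Plus_Rps26 was -0.23, -0.15 and -0.31 in replicates 1, 2 and 3, against 0.00, 0.04 and 0.11 over all features. The libraries of the classes did not overlap for 11 genes, all lower in Minus_Rps26: PRO3, GDH1, HIS1, HIS5, LYS12, HOM2, HOM6, ARO2, ARO4, SER1 and SER2. No gene was higher without overlap, whereas 21% of all features were. Of all features 17.4% were lower without overlap, and 11 of 53 is not far from that share. The ratio was below 0 in all 3 replicates for 28 genes and above 0 in all 3 for GLT1, ILV1 and ARO1. Scaled by total counts alone, the median was 0.49, but that scaling moved the median of all features to 0.75. ILV1, GLT1 and ARO1 then rose (18.4% of all features did) and none of the 53 fell (0.653% of all features did).

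**Figure D2:**
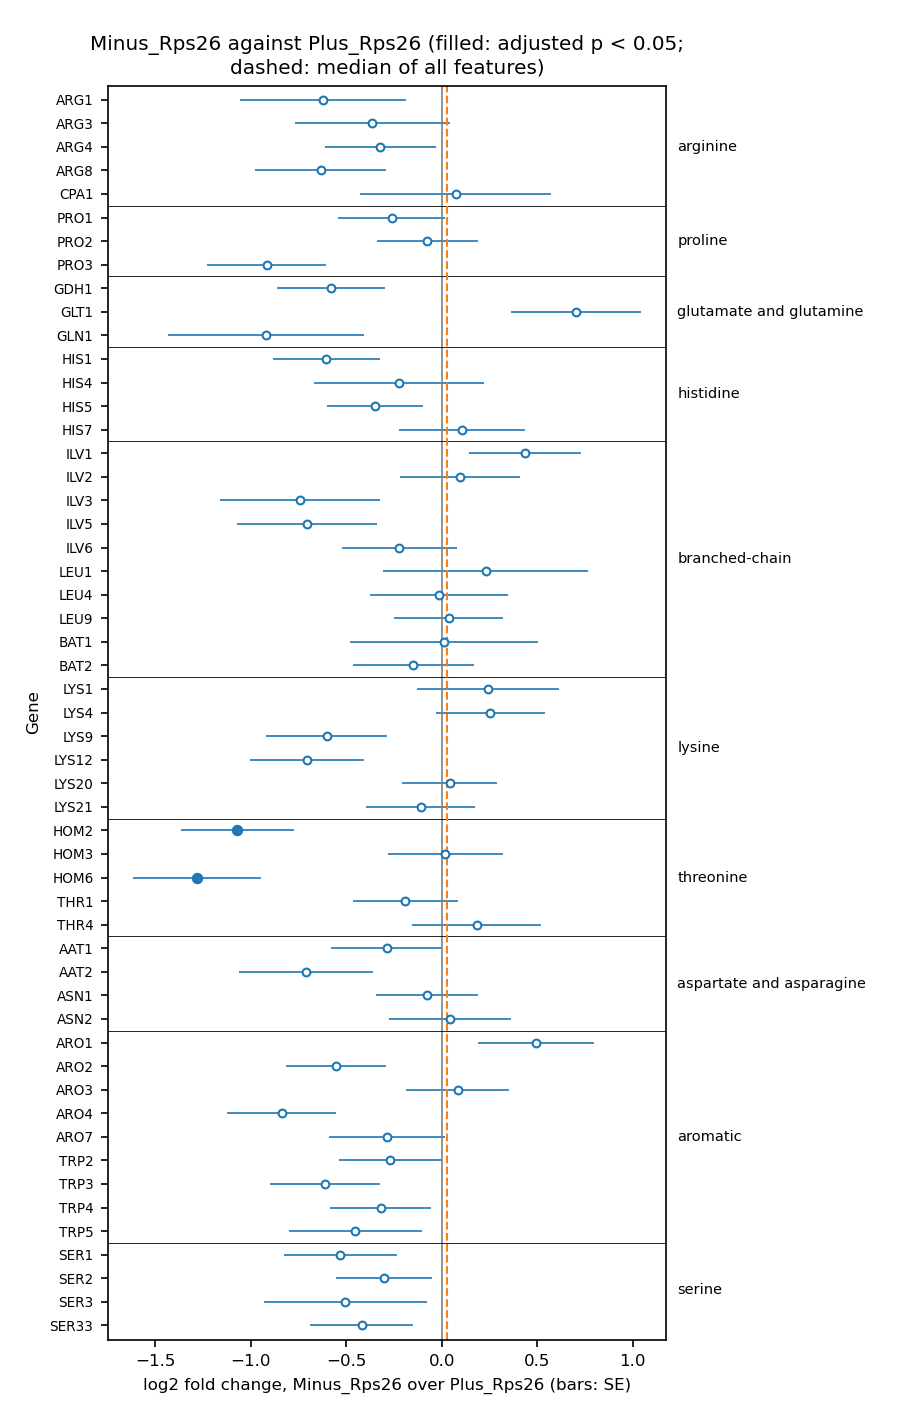
Log2 fold change of Minus_Rps26 over Plus_Rps26 for each of the 53 genes, by route, with its standard error (3 libraries a group). The filled points are HOM2 at -1.07 and HOM6 at -1.28, and 37 of the 53 points lie below 0.

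The threonine route turns aspartate into threonine in 5 steps, and its first 3 enzymes also feed methionine synthesis. Of its 5 genes 2 fell in Minus_Rps26, and they code for neighbouring steps. HOM6, homoserine dehydrogenase (YJR139C, chromosome X, 689445 to 690524 in sacCer3), stood at 405, 432 and 403 CPM in Minus_Rps26, 642, 1025 and 1335 CPM in Plus_Rps26 and 798 CPM in Rps3_TAP. Its level in each Minus_Rps26 library was below that in each Plus_Rps26 library, and Plus_Rps26 replicate 1 was the lowest of that group. HOM6 fell with a log2 fold change of -1.28 ± 0.33 (SE), 2.43-fold lower (edgeR adjusted p = 0.0365). HOM2, aspartate semialdehyde dehydrogenase (YDR158W, chromosome IV, 770357 to 771454), stood at 189, 209 and 154 CPM in Minus_Rps26, 279, 446 and 432 CPM in Plus_Rps26 and 593 CPM in Rps3_TAP. It fell with a log2 fold change of -1.07 ± 0.30 (SE), 2.1-fold lower (edgeR adjusted p = 0.04), and the classes again did not overlap. The log2 ratio by replicate was -0.67, -1.25 and -1.73 for HOM6 and -0.56, -1.09 and -1.48 for HOM2 in replicates 1, 2 and 3. Neither call held with the replicate number as a block (edgeR adjusted p = 0.117 for both), where no feature of any kind passed. Neither held with total-count scaling (log2 fold change -0.42 for HOM6 and -0.25 for HOM2) or after removal of the trend with coding length (-1.15 and -0.96).

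The number of calls turned on Plus_Rps26 replicate 1. Without that library 0 of the 53 genes rose (22.2% of all features did) and 13 fell (21.4% of all features did). The 13 were HOM2, HOM6, ARO4, TRP3, PRO3, GDH1, HIS1, ILV3, ILV5, LYS9, LYS12, AAT2 and ARG8. Without both libraries of replicate 1, 0 rose and 10 fell (24.4% and 22.6% of all features). Without Minus_Rps26 replicate 1, 0 rose and 0 fell (3.15% and 0.616% of all features). Without any one of the other 4 libraries, 0 of the 53 and 0 of all features passed, so those fits tell nothing of these genes in particular. The largest edgeR adjusted p among these 5 fits was 0.201 for HOM6 and 0.209 for HOM2. HOM6 stood between -1.58 and -1.06 on the log2 scale over all 6 fits, and HOM2 between -1.31 and -0.95. In the authors' deposited table from DESeq2, 4 of these genes were lower at an adjusted p under 0.05 and 0 higher, where 15.7% of its features were lower and 13.5% higher. They were HOM6 (-1.24), HOM2 (-1.05), PRO3 (-0.91) and ARO4 (-0.85 on the log2 scale in the authors' deposited table).

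The 3 other genes of the threonine route did not pass. HOM3, the aspartate kinase that starts the route and is inhibited by threonine, stood at 147, 251 and 239 CPM in Minus_Rps26, 162, 233 and 231 CPM in Plus_Rps26 and 144 CPM in Rps3_TAP (log2 fold change 0.02 ± 0.30, edgeR adjusted p = 0.967). THR1, homoserine kinase, had a log2 fold change of -0.19 ± 0.27 and THR4, threonine synthase, of 0.18 ± 0.34 (SE). THR1, the enzyme after HOM6, stood at 149, 229 and 217 CPM in Minus_Rps26 and 208, 236 and 232 CPM in Plus_Rps26, so its classes overlapped where those of HOM6 did not. Since the series concerns the bases before the start codon, these are shown for the 5 genes of the route, from the authors' deposited column of 20 bases. The last 4, taken as positions -4 to -1, are in capitals.
HOM3: tcattttttttaacttTTAC
HOM2: tagaaataaagcgttcTAAA
HOM6: aatcgaataataaaaaAAAA
THR1: agatatacggactacaGAAA
THR4: ggccaccatccctcacACCA
Position -3 holds A in HOM2, HOM6 and THR1, T in HOM3 and C in THR4.

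The aromatic route runs through the shikimate pathway to chorismate and then to tryptophan or to phenylalanine and tyrosine. Of its 9 genes 0 passed the test in either direction, with log2 fold changes of -0.84 to 0.49. Its first step is shared by the isozymes ARO4, which tyrosine inhibits, and ARO3, which phenylalanine inhibits. ARO4 (YBR249C, chromosome II, 716882 to 717994) stood at 598, 513 and 454 CPM in Minus_Rps26, 863, 967 and 959 CPM in Plus_Rps26 and 446 CPM in Rps3_TAP. All 3 Minus_Rps26 libraries were below all 3 of Plus_Rps26, but ARO4 missed the threshold (log2 fold change -0.84 ± 0.28, edgeR adjusted p = 0.0615). It fell when DESeq2 was used (adjusted p = 0.0155), where 13.9% of all features fell and 11.4% rose. ARO3 (YDR035W, chromosome IV, 521816 to 522928) stood at 183, 208 and 203 CPM in Minus_Rps26, 227, 184 and 147 CPM in Plus_Rps26 and 168 CPM in Rps3_TAP, so its classes overlapped (log2 fold change 0.08 ± 0.27). Both coding regions are 1113 bases long, so their counts in a library can be set against each other. ARO4 had 3.27, 2.47 and 2.24 times the counts of ARO3 in Minus_Rps26, 3.80, 5.25 and 6.53 times in Plus_Rps26 and 2.66 times in Rps3_TAP. The ratios of the classes did not overlap, with a difference of -0.95 on the log2 scale between Minus_Rps26 and Plus_Rps26. A two-sided exact permutation test gave p = 0.1, the smallest that 3 libraries against 3 allow, and 0.35 after adjustment over 7 isozyme pairs. Their start contexts differ, with the same 4 positions in capitals.
ARO4: aacaaaagaatctatcAGAA
ARO3: caagaacactttatagCATT
ARO4 is among the 10 of the 53 genes with G at -3, and ARO3 among the 37 with A there. Downstream of them, ARO1, a single protein with 5 activities of the pathway, stood at 287, 347 and 424 CPM in Minus_Rps26, 181, 264 and 304 CPM in Plus_Rps26 and 382 CPM in Rps3_TAP (log2 fold change 0.49 ± 0.30). ARO2, chorismate synthase, stood at 170.1, 211 and 216 CPM in Minus_Rps26 against 327, 279.8 and 268 CPM in Plus_Rps26, without overlap (-0.56 ± 0.26, edgeR adjusted p = 0.147). The 4 tryptophan genes TRP2, TRP3, TRP4 and TRP5 had log2 fold changes of -0.27, -0.61, -0.32 and -0.45, and none passed.

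**Figure D3:**
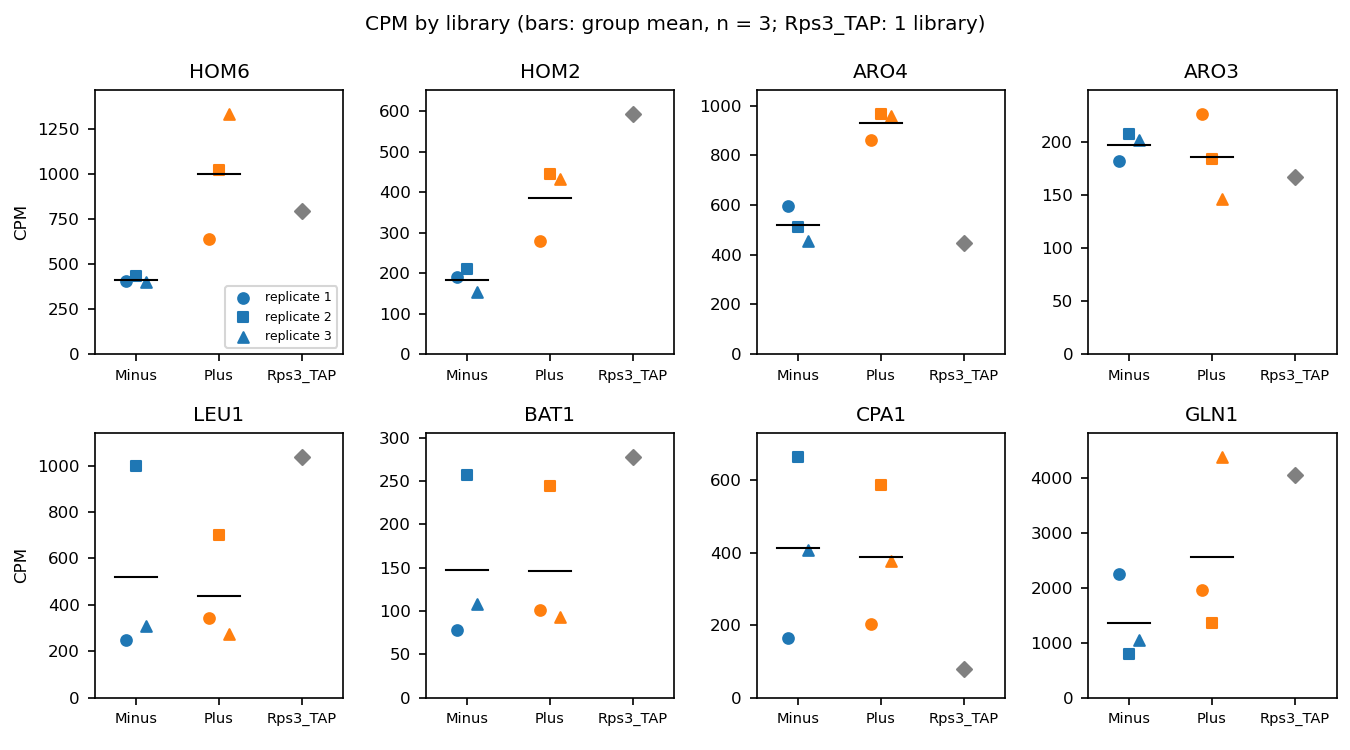
CPM of 8 genes in each library, with the group mean as a bar (n = 3) and a marker shape for each replicate number. HOM6, HOM2 and ARO4 are lower in all 3 Minus_Rps26 libraries than in any of Plus_Rps26, ARO3 overlaps, and LEU1, BAT1 and CPA1 are highest in replicate 2 of both classes.

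Glutamate and glutamine donate the nitrogen for most other amino acids, and glutamate is also the start of the proline and arginine routes. None of the 3 glutamate and glutamine genes, 3 proline genes and 5 arginine genes passed the test between the classes. GLN1 (YPR035W, chromosome XVI, 642208 to 643320) stood at 2239.7, 787 and 1043 CPM in Minus_Rps26, 1957, 1358 and 4368 CPM in Plus_Rps26 and 4049 CPM in Rps3_TAP with overlap between the classes (log2 fold change -0.92 ± 0.52, edgeR adjusted p = 0.212). Plus_Rps26 replicate 3 was the highest library and Minus_Rps26 replicate 2 the lowest. GDH1, which makes glutamate from ammonium with NADPH, stood at 149.6, 153 and 157 CPM in Minus_Rps26 and 167, 229 and 289.9 CPM in Plus_Rps26 without overlap (log2 fold change -0.58 ± 0.28, edgeR adjusted p = 0.157). PRO3, the last step to proline (YER023W, chromosome V, 201076 to 201936), stood at 106, 143 and 130.4 CPM in Minus_Rps26, 157, 244 and 311 CPM in Plus_Rps26 and 477 CPM in Rps3_TAP. The classes did not overlap and Rps3_TAP was the highest, but the log2 fold change of -0.92 ± 0.31 missed the threshold (edgeR adjusted p = 0.0614). The genes of the first steps, PRO1 and PRO2, had log2 fold changes of -0.26 and -0.08, closer to 0 than PRO3.

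In the arginine route ARG8, acetylornithine aminotransferase, stood at 83.4, 70.5 and 83.0 CPM in Minus_Rps26, 76.3, 102 and 188 CPM in Plus_Rps26 and 92.3 CPM in Rps3_TAP. It had the log2 fold change farthest from 0 of the 5 arginine genes, -0.63 ± 0.34, with overlapping classes (edgeR adjusted p = 0.2). CPA1, the small subunit of carbamoyl phosphate synthetase, whose mRNA carries an upstream reading frame that represses it when arginine is plentiful, stood at 164, 663 and 408 CPM in Minus_Rps26, 204, 586 and 377 CPM in Plus_Rps26 and 77.9 CPM in Rps3_TAP (YOR303W, chromosome XV, 882899 to 884134). The classes overlapped (log2 fold change 0.07 ± 0.50), and the replicates of each class differed more than the classes did. ARG1, ARG3 and ARG4 had log2 fold changes of -0.62, -0.36 and -0.32.

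In the histidine route, where 4 genes were followed, none passed. HIS1, whose enzyme starts the route and is inhibited by histidine, stood at 374, 312 and 334 CPM in Minus_Rps26, 434, 505 and 607 CPM in Plus_Rps26 and 545 CPM in Rps3_TAP. The classes did not overlap (log2 fold change -0.60 ± 0.28, edgeR adjusted p = 0.139). HIS5, histidinol phosphate aminotransferase, also did not overlap (-0.35 ± 0.25), while HIS4, which codes for 3 of the steps, and HIS7 stood at -0.22 and 0.11 with overlap. Serine is made from a glycolytic intermediate in 3 steps. All 4 serine genes had log2 fold changes below 0, from -0.53 to -0.30, and none passed. SER1, phosphoserine aminotransferase, stood at 399, 375 and 341 CPM in Minus_Rps26, 432, 476 and 698 CPM in Plus_Rps26 and 520.4 CPM in Rps3_TAP without overlap between the classes (edgeR adjusted p = 0.21). Isozymes SER3 and SER33 share the first step. SER3 stood at 171, 102 and 178 CPM in Minus_Rps26, 158, 112 and 368 CPM in Plus_Rps26 and 51.1 CPM in Rps3_TAP, and SER33 at 119, 142 and 113 CPM in Minus_Rps26, 133, 170.0 and 196 CPM in Plus_Rps26 and 146 CPM in Rps3_TAP. SER3 was highest in Plus_Rps26 replicate 3 and lowest in Rps3_TAP.

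The branched-chain route makes isoleucine, valine and leucine, largely in mitochondria. None of its 10 genes passed between the classes, log2 fold changes ran from -0.74 to 0.44, and the classes overlapped for all 10. ILV5, acetohydroxyacid reductoisomerase, stood at 1127, 1585 and 961 CPM in Minus_Rps26, 1239, 2436 and 2289 CPM in Plus_Rps26 and 2798 CPM in Rps3_TAP (log2 fold change -0.71 ± 0.37, edgeR adjusted p = 0.186). ILV3, dihydroxyacid dehydratase and the next step, stood at 292, 655 and 361 CPM in Minus_Rps26, 379.7, 921 and 878 CPM in Plus_Rps26 and 771 CPM in Rps3_TAP (-0.74 ± 0.42, edgeR adjusted p = 0.217). For both, Plus_Rps26 replicates 2 and 3 were the highest of the 6 libraries of the strain. ILV1, threonine deaminase, and ILV2, the catalytic subunit of acetolactate synthase, lay above 0 at 0.44 and 0.10. ILV6, the regulatory subunit of the same enzyme, stood at 135, 223 and 175 CPM in Minus_Rps26, 189.9, 262 and 167 CPM in Plus_Rps26 and 701 CPM in Rps3_TAP (-0.22 ± 0.30). The leucine branch starts with the synthase isozymes LEU4 and LEU9. LEU2, deleted in BY4741, is not among the 10 genes. LEU4, the more abundant, stood at 204, 453 and 301 CPM in Minus_Rps26, 215, 405 and 343 CPM in Plus_Rps26 and 241 CPM in Rps3_TAP (-0.02 ± 0.36). LEU9 stood at 102, 108 and 134 CPM in Minus_Rps26, 99.9, 89.0 and 146 CPM in Plus_Rps26 and 72.0 CPM in Rps3_TAP (0.04 ± 0.29). LEU1, isopropylmalate isomerase, stood at 248, 998 and 309 CPM in Minus_Rps26, 344, 701 and 273 CPM in Plus_Rps26 and 1036 CPM in Rps3_TAP (0.23 ± 0.54). Replicate 2 was the highest library of each class for LEU1, and Rps3_TAP was higher still. The last step is run by a mitochondrial aminotransferase, BAT1, and a cytosolic one, BAT2. BAT1 stood at 78.2, 257 and 107 CPM in Minus_Rps26, 101, 244 and 92.5 CPM in Plus_Rps26 and 277 CPM in Rps3_TAP (0.01 ± 0.49). BAT2 stood at 165, 259 and 148 CPM in Minus_Rps26, 211, 261 and 159.6 CPM in Plus_Rps26 and 663 CPM in Rps3_TAP (-0.15 ± 0.32).

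Lysine is made in yeast through alpha-aminoadipate. Of its 6 genes 0 passed, with values on both sides of 0. LYS20 and LYS21 code for homocitrate synthase, which lysine inhibits. LYS20 stood at 48.6, 58.9 and 56.8 CPM in Minus_Rps26, 54.5, 46.3 and 58.3 CPM in Plus_Rps26 and 80.7 CPM in Rps3_TAP. Its isozyme LYS21 stood at 96.0, 156 and 118 CPM in Minus_Rps26, 113, 130.1 and 155 CPM in Plus_Rps26 and 88.8 CPM in Rps3_TAP. The classes overlapped for both (0.04 ± 0.25 for LYS20 and -0.11 ± 0.28 for LYS21). LYS4, homoaconitase, stood at 84.2, 123 and 147 CPM in Minus_Rps26, 86.6, 101 and 108 CPM in Plus_Rps26 and 58.6 CPM in Rps3_TAP (0.25 ± 0.29). LYS12, homoisocitrate dehydrogenase, stood at 207, 187 and 125 CPM in Minus_Rps26, 222, 317 and 304 CPM in Plus_Rps26 and 289.7 CPM in Rps3_TAP and was lower without overlap (-0.70 ± 0.30, edgeR adjusted p = 0.112). The saccharopine dehydrogenases LYS9 and LYS1, the last steps, lay apart at -0.60 and 0.24.

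Aspartate aminotransferase links glutamate to aspartate, the start of the threonine route. AAT2, its cytosolic form, stood at 198, 361 and 207 CPM in Minus_Rps26, 336, 575 and 338 CPM in Plus_Rps26 and 787 CPM in Rps3_TAP (log2 fold change -0.71 ± 0.35, edgeR adjusted p = 0.161). AAT1, the mitochondrial form, stood at 79.0, 115 and 79.3 CPM in Minus_Rps26, 94.2, 141 and 97.3 CPM in Plus_Rps26 and 119 CPM in Rps3_TAP (-0.29 ± 0.29). AAT1 had 0.398, 0.318 and 0.383 times the counts of AAT2 in Minus_Rps26, 0.281, 0.244 and 0.288 times in Plus_Rps26 and 0.152 times in Rps3_TAP. These ratios did not overlap between the classes (two-sided exact permutation p = 0.1, the smallest possible, and 0.35 after adjustment). ASN1 and ASN2 are asparagine synthetases. ASN1 stood at 461, 503 and 424 CPM in Minus_Rps26, 484, 513 and 462 CPM in Plus_Rps26 and 775 CPM in Rps3_TAP (-0.08 ± 0.27). ASN2 stood at 339, 652 and 519 CPM in Minus_Rps26, 442, 564 and 455 CPM in Plus_Rps26 and 819 CPM in Rps3_TAP (0.04 ± 0.32). Both overlapped between the classes, and Rps3_TAP was the highest library for each. The 5 other isozyme pairs had exact permutation p-values of 0.4 to 0.9 and overlapped. These tests did not pair the libraries of 1 lysate. Within each replicate LYS21 over LYS20 was lower in Minus_Rps26, at 1.97, 2.65 and 2.08 against 2.07, 2.81 and 2.66 in Plus_Rps26. LEU4 over LEU9 was also lower in each replicate, at 2.00, 4.19 and 2.24 against 2.15, 4.55 and 2.35. The rest of the 5 went both ways, and a paired difference was not tested. Reads that fit both isozymes may have been dropped or split in counting, which bears on all 7 pairs.

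Coding length moved with the comparison. Across the 53 genes the log2 fold change of Minus_Rps26 over Plus_Rps26 had a Pearson correlation of 0.59 with log2 coding length and a Spearman correlation of 0.50, against 0.66 and 0.69 across 5535 nuclear protein-coding genes. Genes are not independent replicates, so these are descriptions. Among the 21 genes under 1200 bases, 18 lay below 0 with a median of -0.36, and among the 13 of 1700 bases or more, 8 lay above 0 with a median of 0.04. GLT1, glutamate synthase, is the longest at 6438 bases and stood at 682, 589 and 939.6 CPM in Minus_Rps26, 364, 357 and 633 CPM in Plus_Rps26 and 598 CPM in Rps3_TAP. Its log2 fold change was 0.70 ± 0.34 (edgeR adjusted p = 0.156) as fitted and -0.81 after the trend over all genes was removed. ARO1, at 4767 bases, likewise stood at 0.49 as fitted and -0.85 with the trend removed. The direction of both therefore turned. With the trend removed 45 of the 53 genes lay below 0 and 8 above, with a median of -0.43 against -0.04 over all features, and 0 of the 53 and 0 of all 5668 features passed the test. The part of length in the result was not tested further.

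**Figure D4:**
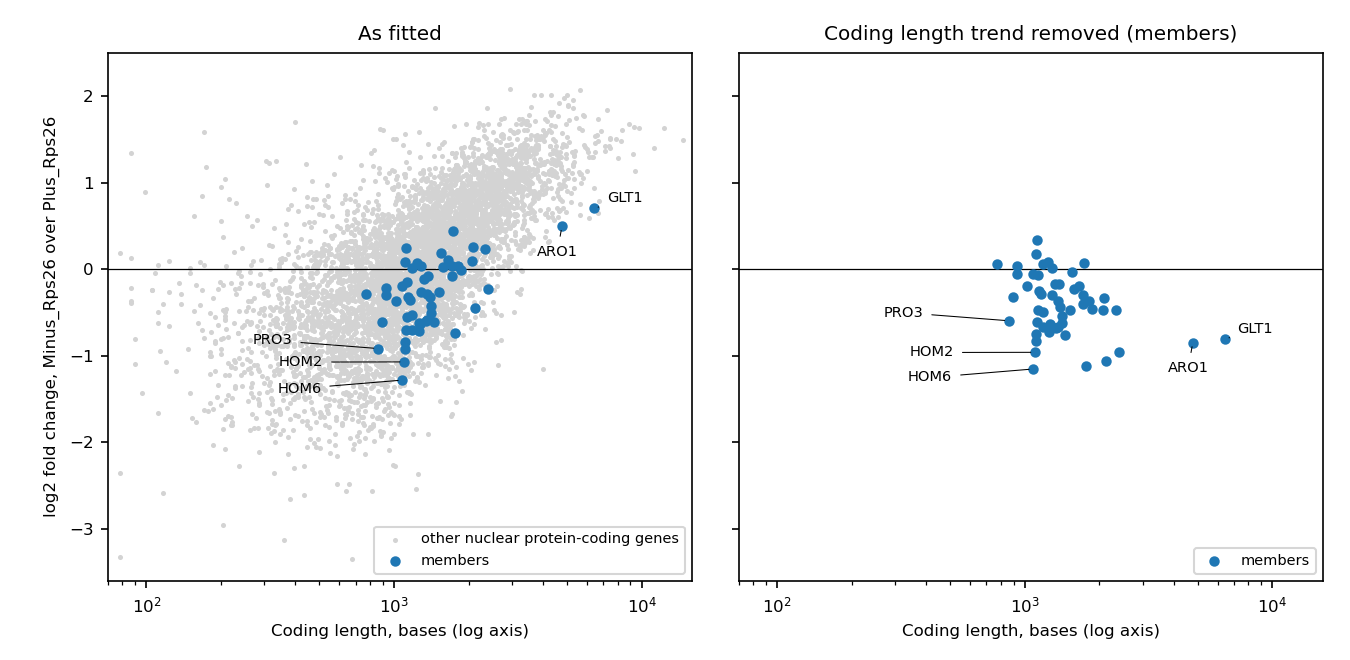
Log2 fold change of Minus_Rps26 over Plus_Rps26 against coding length in bases, for the 53 genes (blue) and other nuclear protein-coding genes (grey) as fitted, and for the 53 with the length trend removed. GLT1 and ARO1 lie above 0 on the left, at 0.70 and 0.49, and below 0 on the right, at -0.81 and -0.85.

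Levels also varied with the replicate number. Whether this variation came from the lysate or from later handling of same-numbered libraries was not tested. Deviations of the 53 genes from their class means, on the log2 scale, had a correlation of 0.919 between Minus_Rps26 and Plus_Rps26 in replicate 2, 0.434 in replicate 3 and 0.217 in replicate 1 (53 genes each). Across all 5815 features these correlations were 0.338 in replicate 2, 0.004 in replicate 3 and -0.245 in replicate 1. The points of a correlation share a pair of libraries from 1 lysate. Within both classes 20 of the 53 genes were highest in replicate 2, as were 13.4% of all features. These included 7 of 10 branched-chain, 4 of 4 aspartate and asparagine, 3 of 5 threonine and 0 of 4 serine genes. LEU1 in replicate 2 was 3.58 times the mean of replicates 1 and 3 in Minus_Rps26 and 2.27 times in Plus_Rps26. BAT1 was 2.77 times that mean in Minus_Rps26 and 2.53 times in Plus_Rps26, and CPA1 was 2.32 times that mean in Minus_Rps26 and 2.01 times in Plus_Rps26. LYS1 and AAT2 also reached 1.5 times in both classes, which made 5 genes: LYS1 was 2.10 times that mean in Minus_Rps26 and 1.64 times in Plus_Rps26, and AAT2 was 1.78 times that mean in Minus_Rps26 and 1.71 times in Plus_Rps26. Another 4 were at 0.7 times or less in both classes. GLN1 was 0.479 times that mean in Minus_Rps26 and 0.429 times in Plus_Rps26, and HIS4 was 0.525 times that mean in Minus_Rps26 and 0.465 times in Plus_Rps26. SER3 was 0.585 times that mean in Minus_Rps26 and 0.427 times in Plus_Rps26, and ARG3 was 0.615 times that mean in Minus_Rps26 and 0.602 times in Plus_Rps26. These limits were chosen after the values were seen. The ratio of LEU4 to LEU9 moved the same way, at 2.00, 4.19 and 2.24 in Minus_Rps26, 2.15, 4.55 and 2.35 in Plus_Rps26 and 3.35 in Rps3_TAP, highest in replicate 2 of both classes.

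Against Rps3_TAP the strain, the growth history and, for Plus_Rps26, the purification differ as well as Rps26, and none of these can be told apart. Rps3_TAP is 1 library, so the spread in its tests comes from the other 6, and both comparisons share it. In Minus_Rps26, 0 of the 53 genes rose and 8 fell relative to Rps3_TAP, while 10.6% of 5815 features rose and 15.6% fell. The 8 are 15.1% of the 53, close to the share of all features in that fit. On the log2 scale the nitrogen and proline genes GDH1 and PRO3 stood at -1.79 and -1.92, and the branched-chain genes ILV6 and BAT2 at -1.98 and -1.80. The threonine genes HOM2 and THR1 stood at -1.69 and -1.11, AAT2 at -1.62 and ARO2 at -1.18. ILV6 had the lowest value, -1.98 ± 0.40 (edgeR adjusted p = 0.00802), with all 6 libraries of the depletion strain between 135 and 262 CPM and Rps3_TAP at 701 CPM. PRO3, GDH1 and ILV6 passed without each Minus_Rps26 library in turn, and THR1 and ARO2 passed in none of those 3 fits. Without replicate 3, PRO3, GDH1 and ILV6 were the 3 that passed, and 7.68% of all features fell and 2.93% rose. With only the 4 libraries of these groups in the fit, 2 of the 53 rose and 15 fell (18.6% and 22.1% of all features). With total-count scaling 10 of the 53 rose and 0 fell (28.3% and 2.53% of all features), and THR1 and ARO2 turned direction, at 0.10 and 0.04. All 3 Minus_Rps26 libraries were below Rps3_TAP for 32 genes and above it for 10 (38.6% and 44.3% of all features). The median of the 53 was -0.39 and that of all features 0.18.

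In Plus_Rps26, 0 of the 53 genes passed in either direction relative to Rps3_TAP in edgeR, where 0.206% of all features rose and 1.27% fell. At an unadjusted p under 0.05 there were 3 higher and 5 lower of the 53 (20.8% of all features passed in either direction), and DESeq2 called CPA1 and SER3 higher and BAT2 and ILV6 lower (2.54% of all features were called higher and 4.53% lower). The same 4 genes passed in edgeR without Plus_Rps26 replicate 1, where 3.52% of all features rose and 6.54% fell. All 3 Plus_Rps26 libraries were above Rps3_TAP for 11 genes and below it for 22 (30.6% and 31.1% of all features). CPA1 had the highest values in both comparisons, 2.40 ± 0.83 in Minus_Rps26 (edgeR adjusted p = 0.0544) and 2.32 ± 0.82 in Plus_Rps26 (edgeR adjusted p = 0.153). Every library of the depletion strain held more CPA1 than the 77.9 CPM of Rps3_TAP, but replicate 1 of each class held less than the other 2. SER3 came next, at 1.56 ± 0.67 in Minus_Rps26 (edgeR adjusted p = 0.104) and 2.06 ± 0.69 in Plus_Rps26 (edgeR adjusted p = 0.138), while its isozyme SER33 stood at -0.23 in Minus_Rps26 and 0.18 in Plus_Rps26. SER3 had 1.44, 0.717 and 1.57 times the counts of SER33 in Minus_Rps26, 1.18, 0.66 and 1.88 times in Plus_Rps26 and 0.349 times in Rps3_TAP, the lowest of the 7. BAT2 lay at -1.80 ± 0.42 in Minus_Rps26 and -1.65 ± 0.42 in Plus_Rps26, with no library of either class above the 663 CPM of Rps3_TAP. Values for HOM6 were -0.95 in Minus_Rps26 and 0.33 in Plus_Rps26, and for ARO4 0.23 in Minus_Rps26 and 1.06 in Plus_Rps26.

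**Figure D5:**
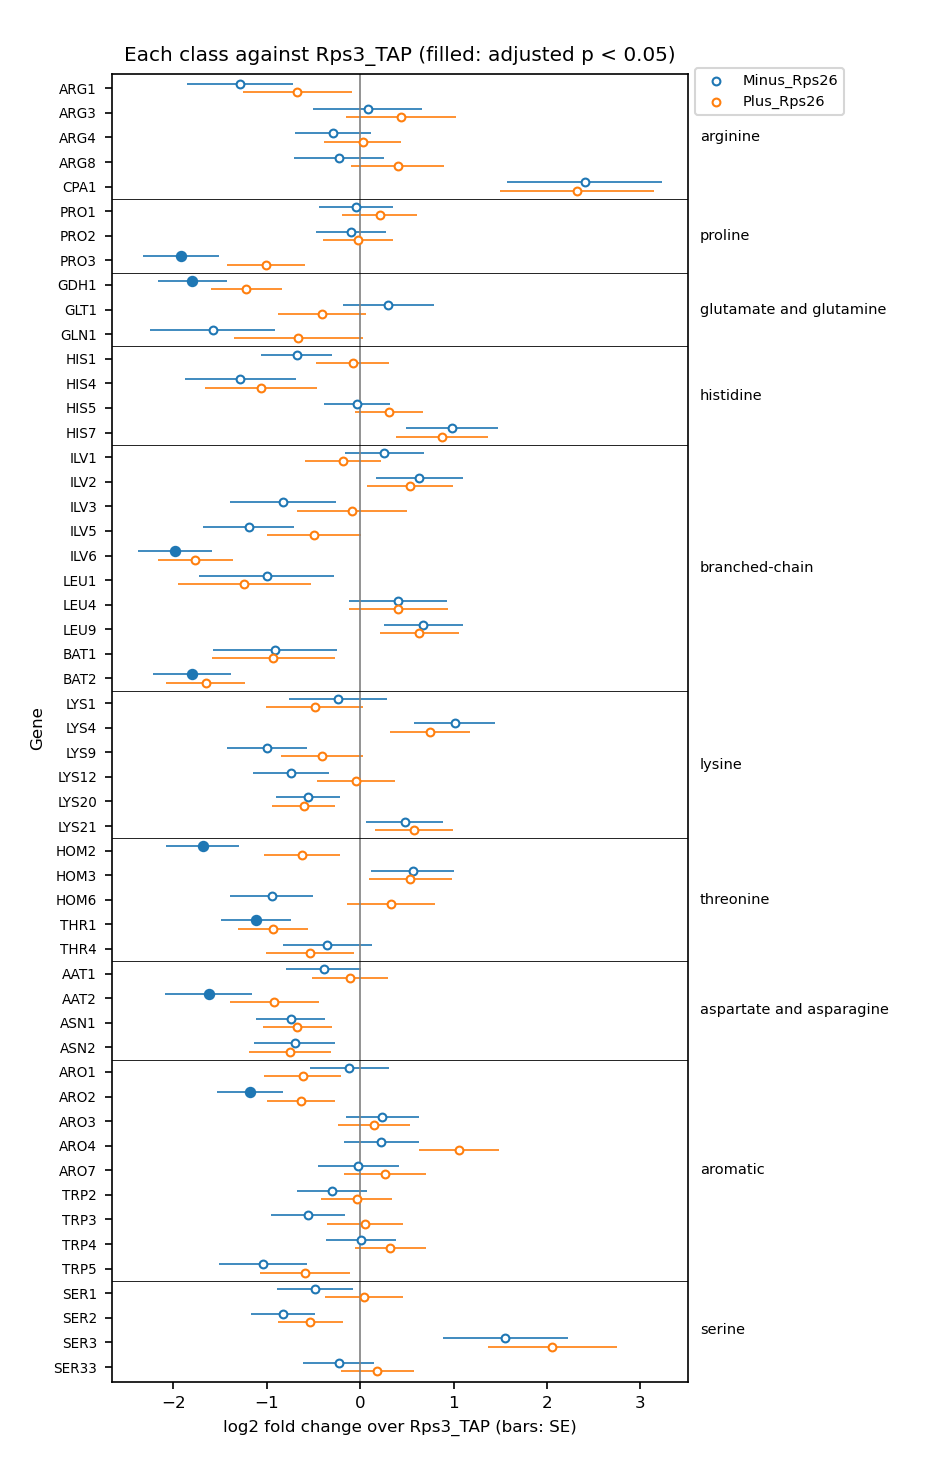
Log2 fold change of each class over the single Rps3_TAP library for the 53 genes, with standard errors that rest on the spread of the other 6 libraries. The filled points are the 8 genes called lower in Minus_Rps26, and CPA1 lies farthest to the right for both classes, at 2.40 in Minus_Rps26 and 2.32 in Plus_Rps26.

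The start contexts of all 53 genes were in the deposited column. A stood at -3 in 37 of 53 (69.8%, against 60.8% of 5685 genes), G in 10, C in 4 and T in 2 (3.77%, against 10.9% of genes). At -4, A stood in 31 of 53 (58.5%, against 43.6% of genes). The 37 genes with A at -3 had a median log2 fold change of Minus_Rps26 over Plus_Rps26 of -0.30, the 10 with G -0.53, the 4 with C 0.08 and the 2 with T -0.13. Over all genes these medians were -0.03, 0.10, 0.18 and 0.14. With the length trend removed A and G lay closer, at -0.46 and -0.53 in the 53 genes, with C at 0.00 and T at -0.30. Over all genes the values with the trend removed were -0.06 for A, 0.00 for G, 0.03 for C and 0.02 for T. Log2 fold changes ran from -1.28 to 0.70 with A at -3 and from -0.92 to 0.44 with G. The short PRO3 is the lowest of the 10 with G and the long GLT1 the highest of the 37 with A. They are shown here as extremes and do not stand for their groups.
PRO3: caaacaaaccaactacAGAT
GLT1: aaagaattagaaaagaAAGC
With 2 and 4 genes in the smallest groups, and length moving with the fold change, these medians are descriptions only.

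Regulators of these routes were counted beside the enzymes. Of 13 regulators tested, 3 rose in Minus_Rps26 over Plus_Rps26 and 0 fell (8.1% and 7.9% of all features), with a median of 0.86 against 0.03 over all features. They were GCN2, the kinase above Gcn4, at 100.1, 124 and 205 CPM in Minus_Rps26 and 53.9, 45.8 and 48.5 CPM in Plus_Rps26 (log2 fold change 1.53 ± 0.32, edgeR adjusted p = 0.0357), the leucine activator LEU3 (1.05) and BAS1, an activator of histidine and adenine genes (1.35). With the replicate block none passed, and with the length trend removed the median was 0.23 and none of the 3 passed, at 0.14, 0.25 and 0.62. GCN4 itself stood at 1275, 664 and 592 CPM in Minus_Rps26, 842, 1047 and 2159.6 CPM in Plus_Rps26 and 1322 CPM in Rps3_TAP and overlapped between the classes (log2 fold change -0.68 ± 0.44, edgeR adjusted p = 0.278). Against Rps3_TAP 6 of the 13 rose in Minus_Rps26 and 0 fell (10.6% and 15.6% of all features), and in Plus_Rps26 none passed. With the length trend removed 3 of these 6 calls were lost: GCN2 (edgeR adjusted p = 0.347), ARG81 (0.372) and ARO80 (0.269).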

How the data were processed

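For each of 7 libraries the authors deposited a table of raw counts by feature (TruSeq stranded total RNA, depleted of ribosomal RNA, per the labels' protocols). The submitters' processing notes name TopHat2 2.0.9, the sacCer3 build, DESeq and DESeq2. How counts were made, and whether strand was used, is not given in the sources used here; overlapping genes are therefore uncertain. Log2 fold changes, adjusted p-values and the bases before each start codon come from a table of the authors, per the file headers.

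Feature names were looked up in a RefSeq table of R64, the assembly of sacCer3 (6052 of 6341 by symbol or locus tag, 47 by synonym, 242 not), which gives coordinates and coding length, the annotated span. The 5 closing lines of each file were left out; 3.37% to 7.48% of reads fell in no feature and 0.148% to 2.75% were ambiguous. edgeR 4.0.16 (R 4.3.3) was run over all features with trimmed-mean scaling, its default filter, which all 53 genes passed, a quasi-likelihood test and a threshold of 0.05 on Benjamini-Hochberg adjusted p. The SE is the log2 fold change over the square root of F. Minus_Rps26 and Plus_Rps26 were fitted alone, and comparisons with Rps3_TAP over 7 libraries. Replicate log2 ratios had 0.5 CPM added. The length trend was removed with a loess curve (span 0.5) of each library as an offset. Isozyme ratios were tested with exact permutation tests that did not pair libraries by replicate. Spearman correlations were computed with scipy 1.17.1. The fits were tested on simulated data with known changes. Those data held no variation shared by same-numbered libraries and no trend with coding length, so that test does not bear on either.

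The series describes biological replicates, and p-values measure the spread between these libraries. The description of Plus_Rps26 replicate 2 carries a flowthrough number 1; its title was used. Same-numbered libraries are the bound and unbound ribosomes of 1 lysate by the purification protocol, and their deviations from group means correlated at -0.245, 0.338 and 0.004 over 5815 features. With the block no feature passed (smallest adjusted p = 0.117), so the blocked p stands beside the calls. Chi-square per degree of freedom between replicates was 150.7 to 607.6. The last of the 20 deposited bases was taken as -1, because 60.8% of 5685 genes held A, its peak, at the third base from the end. Promoter letters were planned but not analysed here, and some genes of the lists beside the 53 are not reported here. The 53 genes, the lists and the rules were chosen with earlier results of these data known.

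Values in every library are given for genes called between the classes, the most abundant gene and the one with the largest change of each route, the 3 highest and 3 lowest against Rps3_TAP, and 7 isozyme pairs; other genes with values were added for their place in a route. Alternatives were total-count and relative log expression scaling, DESeq2 1.42.0, limma-voom (limma 3.58.1), no filter, nuclear protein-coding genes alone, the length trend removed, a replicate block, other sets of libraries, libraries left out, and a fold of 2 as well.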

Additional observations from a re-analysis of the deposited data

How the results depend on the processing

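Between Minus_Rps26 and Plus_Rps26, the 0 higher and 2 lower genes became 3 and 0 with total-count scaling. The count lower was 4 with DESeq2 (HOM2, HOM6, PRO3 and ARO4), where 13.9% of all features were lower. It was 3 with nuclear protein-coding genes alone (HOM2, HOM6 and ARO4), where 580 of 5520 features were lower. It was 0 with the length trend removed, with the replicate block and with both. It ranged from 0 to 13 when libraries were left out, 13 without Plus_Rps26 replicate 1, 10 without both of replicate 1 and 0 in the other fits, of which those without Minus_Rps26 replicates 2 or 3 or Plus_Rps26 replicates 2 or 3 called 0 of all features. The median of -0.29 became 0.49 with total-count scaling, -0.43 with the length trend removed, -0.42 with the block and the length trend removed, and -0.40 to -0.16 with libraries left out. For Minus_Rps26 against Rps3_TAP, the 0 higher genes became 10 with total-count scaling (28.3% of all features, against 10.6%). They became 1 with DESeq2 (865 of all 6134 features) and 1 with nuclear protein-coding genes alone (674 of 5592 features). They became 2 with only the 4 libraries of both groups (18.6% of all features), and 0 to 1 with libraries left out. The 8 lower became 0 with total-count scaling (2.53% of all features) and 15 with only the 4 libraries (22.1% of all features, against 15.6%). With the length trend removed they became 9 (511 of all 5815 features). With libraries left out they became 3 to 7, with 3 without Minus_Rps26 replicate 3 (7.68% of all features). The median of -0.39 became 0.82 with total-count scaling, -0.61 with the length trend removed and -0.59 to -0.30 with libraries left out. THR1 and ARO2 reversed there with total-count scaling, at 0.10 and 0.04. For Plus_Rps26 against Rps3_TAP, DESeq2 called 2 higher and 2 lower (2.54% and 4.53% of all features). Nuclear protein-coding genes alone gave 1 lower (119 of 5592 features). Leaving out libraries gave 0 to 2 of each, 2 of each without Plus_Rps26 replicate 1. The median of -0.09 became 0.34 with total-count scaling. The share of counts, 0.268 percentage points higher in Minus_Rps26, became 0.505 over all features and -0.288 without ribosomal protein genes. For single genes, 1868 results kept direction and side of the threshold, 63 newly passed, 42 no longer passed, and 2 called values reversed. Another 198, past the threshold in neither fit, changed sign, GLT1 and ARO1 with the length trend removed among them. The cause of these changes was not tested beyond what each alternative changes. Each of the 53 genes had 66 or more counts in every library, so depth limits these values less than the spread between replicates.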

Other observations

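Enzymes of other amino acid routes, 20 of them, were counted in the same fits. Between Minus_Rps26 and Plus_Rps26, 0 rose and 1 fell (8.1% and 7.9% of all features). The gene that fell was ORT1, the mitochondrial ornithine transporter of arginine synthesis. It stood at 31.4, 31.9 and 26.9 CPM in Minus_Rps26 and 34.4, 82.3 and 79.8 CPM in Plus_Rps26 (log2 fold change -1.13 ± 0.35, edgeR adjusted p = 0.0495, and 0.122 with the replicate block). Relative to Rps3_TAP, ARG5,6, of arginine synthesis, rose in Minus_Rps26 (1.81), and TRP1 (-1.17) and GDH3, a glutamate dehydrogenase (-2.80), fell. GDH3 stood at 3.82, 2.16 and 3.56 CPM in Minus_Rps26, 1.86, 13.7 and 20.2 CPM in Plus_Rps26 and 22.1 CPM in Rps3_TAP.

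Amino acid permeases, 14 of them, showed 0 calls in either direction between the classes (8.1% of all features rose and 7.9% fell). Their median log2 fold change was 0.03. Relative to Rps3_TAP, GNP1, a glutamine permease, rose in Minus_Rps26 (1.97, edgeR adjusted p = 0.0218) and AGP1, a broad permease, fell (-1.67, edgeR adjusted p = 0.0401). GNP1 stood at 132, 172 and 256 CPM in Minus_Rps26, 94.3, 93.7 and 141 CPM in Plus_Rps26 and 47.8 CPM in Rps3_TAP, and AGP1 at 22.8, 14.3 and 27.2 CPM in Minus_Rps26, 14.5, 15.3 and 35.7 CPM in Plus_Rps26 and 68.4 CPM in Rps3_TAP. In Plus_Rps26 no enzyme or permease of these lists passed against Rps3_TAP.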
